A study of Mus musculus with 12 samples.

Results

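Gap43, Ina, Sox11, Gbx2 and Nes, genes known from the nervous system, were followed in mouse embryonic stem (ES) cells after hydrogen peroxide. They are 5 of the 8251 genes named on the MG_U74Av2 array, and the array annotation gives them 8 of its 12488 probe sets, the groups of short oligonucleotides that each read a transcript. The genes were chosen by their readout on these same 12 arrays, with their signals in all 3 groups in view, so their values are given here as a description, with no p-value for any of them. The 12 RNA samples came from clone C2, an E14tg2a ES cell derivative that carries a pair of targeted I-SceI sites, and all groups share that genotype. Cells were kept in phosphate-buffered saline (PBS) alone (n = 3), given 100 µM hydrogen peroxide for 15 min (n = 4) or given 5 mM for 30 min (n = 5), and recovery in maintenance medium lasted 1 h. Dose and exposure time changed together, so a difference between groups belongs to the treatment as a whole. How long the PBS controls were held, and whether they also had the recovery, is not given in the sources used here. All groups come from 1 clone. The labels do not say that replicates were separate cultures, so the spread between arrays, and every p-value built on it, may be technical.

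Neural identity is built in steps. Transcription factors of the Sox and homeobox families specify progenitors and their position along the body axis, and the cells that leave division then assemble a neuronal cytoskeleton and extend growth cones. ES cells are pluripotent and can transcribe some of these genes at low levels before any lineage is chosen. Sox11 encodes a high-mobility-group transcription factor of neural progenitors and young neurons. Gbx2 encodes a homeobox factor that sets the boundary between midbrain and hindbrain, and in mouse ES cells it is also known as a target of LIF signalling that favours self-renewal. Ina encodes alpha-internexin, a neuronal intermediate filament protein, Nes encodes nestin, the intermediate filament protein of neural progenitors, and Gap43 encodes a membrane phosphoprotein of the growth cone.

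Markers of ES cells had signal in every group. All 19 stem cell markers on the array passed the filter, and none had a group mean under 10.1 signal units, the value used as the offset. Pou5f1, which encodes the pluripotency factor Oct4, averaged 4319 ± 929 units (SD, n = 3) in PBS, 4629 ± 921 at 100 µM (n = 4) and 5903 ± 479 at 5 mM (n = 5). Nanog, another core pluripotency gene, averaged 3461, 5673 and 4959 units in the same order of dose. The brightest probe set of an array read 7206 to 8904 units in PBS, 14976 to 24225 at 100 µM and 19733 to 34685 at 5 mM. The median signal of an array was 56.1 to 64.7 units in PBS, 67.1 to 77.6 at 100 µM and 61.5 to 70.7 at 5 mM. The part of these differences in the neural genes' values was not tested. Markers of primitive endoderm, an extraembryonic lineage, also had signal, with 22 of 23 on the array past the filter, and they differed between the treatments. At 100 µM 7 of the 22 tested were higher than in PBS and none lower in limma (1 lower at an unadjusted p under 0.05), and at 5 mM 1 was higher and 16 lower. Of all genes tested 11.9% were called higher and 12.7% lower at 100 µM than in PBS, and 5.36% and 6.84% at 5 mM. Their summed signal ranged over 12860 to 18633 units in PBS, 18377 to 19865 at 100 µM and 13176 to 15829 at 5 mM. Dab2 and Gata6, which define that lineage, averaged 28.6 and 23.6 units at 5 mM, against 577 and 182 in PBS. The part of these cells in the neural genes' values was not tested. In such bulk RNA, fewer cells that express a gene and less RNA of it per cell cannot be told apart.

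The sequences just upstream of the start sites are shown because 3 of these genes, Ina, Sox11 and Gbx2, shared the same low point at 100 µM, whereas Nes did not. They are the 250 bases before the annotated start in RefSeq, assembly GRCm38.p6, printed 5′ to 3′ along the gene's own strand. Of the 5 genes 4 matched the table by symbol, at chr19:47014431-47014680 on the plus strand (Ina), chr12:27342719-27342968 on the minus strand (Sox11), chr1:89931177-89931426 on the minus strand (Gbx2) and chr3:87970843-87971092 on the plus strand (Nes). Gap43, on chromosome 16, is named only. Capitals mark matches to the motif GGGCGG, known as the GC box, or to the CCAAT box, on either strand. A match on the other strand prints as its reverse complement.
Ina: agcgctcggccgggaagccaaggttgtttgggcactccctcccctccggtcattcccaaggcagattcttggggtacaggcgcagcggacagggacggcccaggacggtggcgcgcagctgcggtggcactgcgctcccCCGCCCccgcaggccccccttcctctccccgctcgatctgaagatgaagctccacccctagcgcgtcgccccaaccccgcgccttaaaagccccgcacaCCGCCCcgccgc
Sox11: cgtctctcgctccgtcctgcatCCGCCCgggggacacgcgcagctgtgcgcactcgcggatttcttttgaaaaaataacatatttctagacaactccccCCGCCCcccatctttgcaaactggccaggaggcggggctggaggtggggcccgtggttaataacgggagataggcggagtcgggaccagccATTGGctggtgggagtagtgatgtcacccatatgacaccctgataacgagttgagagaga
Gbx2: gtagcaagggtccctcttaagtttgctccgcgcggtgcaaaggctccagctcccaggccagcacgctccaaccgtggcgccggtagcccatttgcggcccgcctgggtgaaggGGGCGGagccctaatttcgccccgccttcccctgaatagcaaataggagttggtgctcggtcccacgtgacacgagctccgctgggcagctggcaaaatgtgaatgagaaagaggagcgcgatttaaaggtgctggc
Nes: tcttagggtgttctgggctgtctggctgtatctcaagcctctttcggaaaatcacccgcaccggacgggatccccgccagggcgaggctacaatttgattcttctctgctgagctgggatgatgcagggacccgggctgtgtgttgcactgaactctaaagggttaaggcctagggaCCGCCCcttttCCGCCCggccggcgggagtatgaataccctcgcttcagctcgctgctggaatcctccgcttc
All 4 windows were rich in G and C. The share of G and C was 70.8% for Ina, 58.0% for Sox11, 61.6% for Gbx2 and 58.8% for Nes, beside a median of 52.4% over 32851 promoters. The CG dinucleotide occurred 25 times for Ina, 17 for Sox11, 18 for Gbx2 and 15 for Nes, where the median promoter held 6. Fewer CG dinucleotides were found in 89.3%, 76.5%, 78.3% and 72.7% of all promoters for Ina, Sox11, Gbx2 and Nes, in that order. The GC box was found in all 4, 2 times each for Ina, Sox11 and Nes and 1 time for Gbx2, and it is present in 32.7% of all promoters. The CCAAT box was found for Sox11 alone of the 4, and 33.8% of all promoters hold it. No match was found for the TATA box TATAAA (12.4% of all promoters), the AP-1 site TGANTCA (6.75%), the antioxidant response core TGACNNNGC (10.2%) or the heat shock element GAANNTTC (6.69%), each searched on both strands. By the presence or absence of these motifs Nes did not differ from Ina and Gbx2, and Sox11 differed from them by its CCAAT box. The part of these motifs in the genes' values was not tested.

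Sox11 and Gbx2 are the transcription factors of the group. The brighter Sox11 probe set, 101631_at, read 392, 199 and 191 units in PBS, 104, 87.5, 112 and 135 at 100 µM, and 475, 501, 328, 459 and 582 at 5 mM. All 4 arrays at 100 µM lay below every other array. The 5 mM arrays lay above PBS except for replicate 3, which read less than PBS replicate 1. The means were 261 ± 114 units in PBS (SD, n = 3), 109 ± 19.7 at 100 µM (n = 4) and 469 ± 91.9 at 5 mM (n = 5), so Sox11 ordered as 100 µM, PBS, 5 mM, with the last of these steps inside an overlap of arrays. On the log2 scale, after addition of the offset, the difference was 0.88 ± 0.23 (SE) for 5 mM minus PBS, -1.12 ± 0.24 for 100 µM minus PBS and 1.99 ± 0.21 for 5 mM minus 100 µM. PBS replicate 1 set much of the control's spread. Without it the differences were 1.20 for 5 mM minus PBS and -0.79 for 100 µM minus PBS. That array also had the highest ratio of 3′ to 5′ signal for Actb, which tracks how intact the RNA was. It was 1.995, against 0.871 and 0.921 on the other PBS arrays. The same ratio for Gapdh did not single the array out, at 0.779 against 0.588 and 0.831. The part of these ratios in the Sox11 value was not tested.

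A dimmer Sox11 probe set, 93669_f_at, has the suffix that marks probes shared within a gene family, so signal from related transcripts cannot be told apart from that of Sox11. It read 36.8, 44.5 and 38.3 units in PBS, 27.8, 21.1, 24.5 and 26.0 at 100 µM, and 73.2, 85.0, 46.3, 102 and 75.1 at 5 mM. The 3 groups did not overlap, and the order was the same as for the brighter probe set. Its log2 differences were smaller, at 0.76 ± 0.23 (SE) for 5 mM minus PBS, -0.52 ± 0.24 for 100 µM minus PBS and 1.28 ± 0.21 for 5 mM minus 100 µM.

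Gbx2, read by 94200_at, differed from the others in where 5 mM fell. It read 523, 408 and 499 units in PBS, 141, 106, 87.1 and 117 at 100 µM, and 299, 288, 327, 421 and 276 at 5 mM. The 100 µM arrays lay far below all others, and the 5 mM arrays lay below PBS except that replicate 4 read above PBS replicate 2. The means were 477 ± 60.5 units in PBS (SD, n = 3), 113 ± 22.4 at 100 µM (n = 4) and 322 ± 58.5 at 5 mM (n = 5), an order of 100 µM, 5 mM, PBS. At 100 µM Gbx2 was 3.995-fold lower than in PBS on the offset scale (log2 difference -1.998 ± 0.179, SE), and only 8 of the other tested probe sets had a lower value in that comparison. At 5 mM it was 1.47-fold lower than in PBS (-0.56 ± 0.17) and 2.71-fold higher than at 100 µM (1.44 ± 0.16).

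Ina and Nes encode intermediate filament proteins, and their readouts differed. Ina probe set 94334_f_at also has the suffix of probes shared within a gene family, so signal from related transcripts cannot be told apart from that of Ina. It read 325, 242 and 168 units in PBS, 83.1, 59.6, 54.7 and 98.4 at 100 µM, and 291, 421, 297, 363 and 329 at 5 mM. Every 100 µM array lay below every other array, and PBS replicate 1 lay inside the range of the 5 mM arrays. The means were 245 ± 78.5 units in PBS (SD, n = 3), 74.0 ± 20.5 at 100 µM (n = 4) and 340.2 ± 53.5 at 5 mM (n = 5), so PBS and 5 mM are neighbours whose arrays overlap. At 100 µM Ina was 3.005-fold lower than in PBS (log2 difference -1.59 ± 0.23, SE), with 24 tested probe sets lower still, and at 5 mM it was 4.22-fold higher than at 100 µM (2.08 ± 0.20). The difference between 5 mM and PBS was 0.49 ± 0.22, and it ran between 0.26 without PBS replicate 3 and 0.71 without PBS replicate 1.

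The other Ina probe set, 94335_r_at, was built under relaxed design rules, as its suffix marks. It read 188, 132 and 123 units in PBS, 36.7, 39.0, 48.4 and 61.0 at 100 µM, and 272, 333, 126, 193 and 205 at 5 mM. The groups stood as for the first probe set, with 5 mM replicate 3 among the PBS arrays. Its log2 differences were 0.53 ± 0.26 (SE) for 5 mM minus PBS, -1.48 ± 0.27 for 100 µM minus PBS and 2.01 ± 0.24 for 5 mM minus 100 µM. The means were 147.5 ± 35.4 units in PBS (SD, n = 3), 46.3 ± 11.1 at 100 µM (n = 4) and 225 ± 79.3 at 5 mM (n = 5).

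Nes did not share the low point at 100 µM. Probe set 103549_at read 34.4, 30.1 and 57.2 units in PBS, 26.0, 48.7, 81.3 and 61.1 at 100 µM, and 89.7, 93.7, 37.2, 63.4 and 75.4 at 5 mM. The 3 groups overlapped one another. The means were 40.6 ± 14.6 units in PBS (SD, n = 3), 54.3 ± 23.2 at 100 µM (n = 4) and 71.9 ± 22.8 at 5 mM (n = 5), and no neighbours in this order differed beyond the spread of their arrays. The log2 differences were 0.68 ± 0.32 (SE) for 5 mM minus PBS, 0.30 ± 0.33 for 100 µM minus PBS and 0.37 ± 0.29 for 5 mM minus 100 µM. The second Nes probe set, 161829_at, was below the filter and was not tested. It read 3.37, 8.26 and 6.69 units in PBS, 9.59, 9.55, 9.84 and 9.53 at 100 µM, and 7.24, 6.08, 19.4, 9.86 and 13.1 at 5 mM, mostly under the offset.

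Gap43 is the growth cone gene of the group. Probe set 102389_s_at, whose suffix marks probes shared by more than 1 transcript, read 57.6, 42.8 and 46.6 units in PBS, 27.3, 9.29, 17.5 and 20.3 at 100 µM, and 125.6, 74.4, 114, 126.0 and 109 at 5 mM. The 3 groups did not overlap, with 100 µM lowest and 5 mM highest. The means were 49.0 ± 7.66 units in PBS (SD, n = 3), 18.6 ± 7.45 at 100 µM (n = 4) and 109.9 ± 21.1 at 5 mM (n = 5). At 5 mM Gap43 was 2.01-fold higher than in PBS (log2 difference 1.01 ± 0.25, SE), and at 100 µM it was 2.11-fold lower than in PBS (-1.07 ± 0.26). Between the doses it was 4.24-fold higher at 5 mM than at 100 µM (2.08 ± 0.23), and 9 of the other tested probe sets had a higher value there. Since 100 µM replicate 2 lay under the offset, the size of these values depends on it. With a floor in place of the offset they were -1.46 for 100 µM minus PBS and 2.61 for 5 mM minus 100 µM, and with 4 times the offset they were -0.61 and 1.35.

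**Figure D1:**
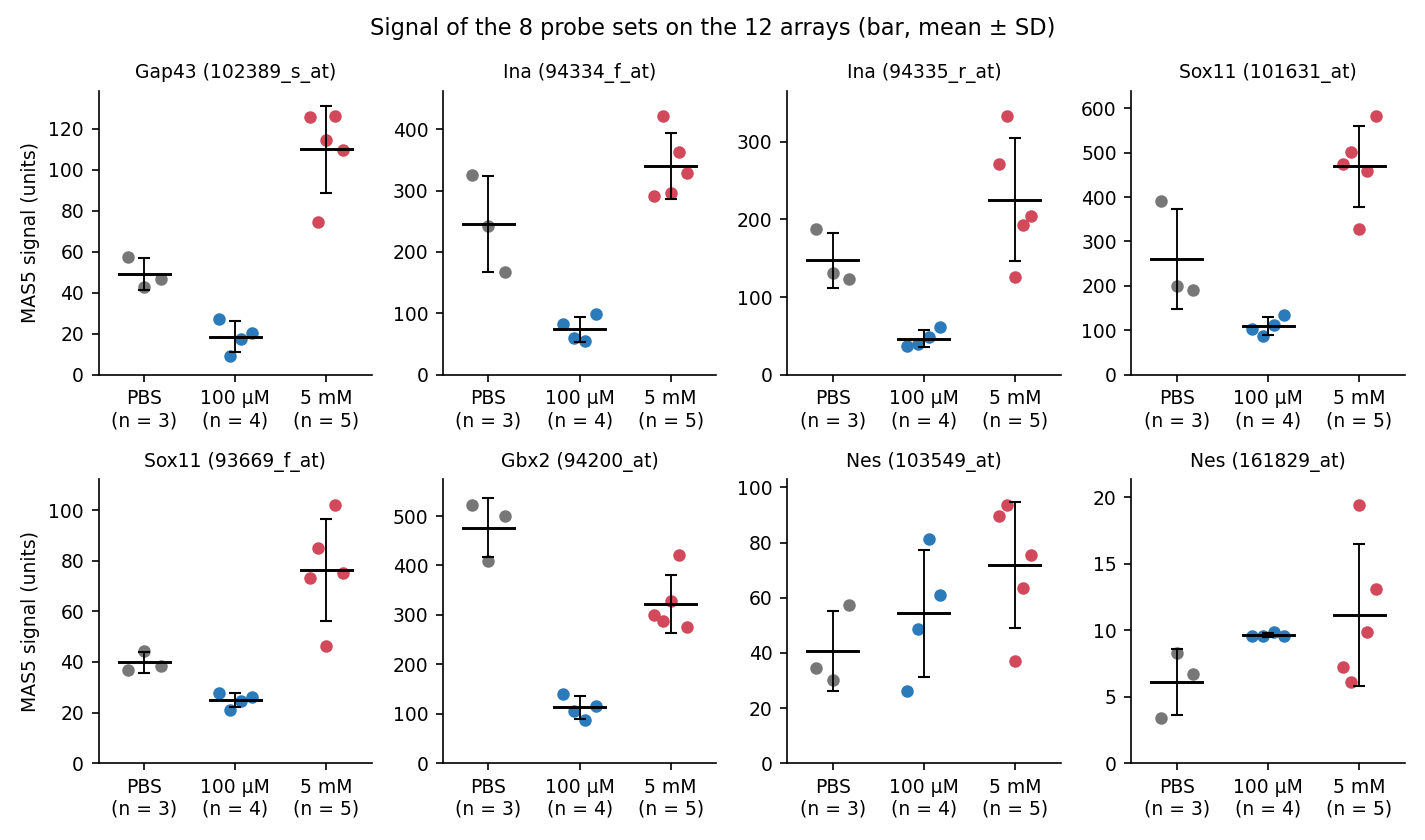
Signal in MAS5 units (y axis, linear, from 0) of the 8 probe sets of Gap43, Ina, Sox11, Gbx2 and Nes on each of the 12 arrays, by treatment (x axis: PBS, 100 µM and 5 mM hydrogen peroxide). Points are arrays, the horizontal bar is the mean and the whiskers are the SD. The 100 µM points lie lowest for Gap43, Ina, Sox11 and Gbx2, with Gap43 means of 49.0, 18.6 and 109.9 units from left to right. For Nes the points of the 3 treatments overlap in 103549_at. In the dim Nes probe set 161829_at the 100 µM points lie above those of PBS, and the 5 mM points overlap both.

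Across the 7 probe sets above the filter, the arrays at 100 µM lay below every PBS and every 5 mM array for 6. Among all 8695 tested probe sets 571 (6.57%) had that order. In the fit over all probe sets, with 0.05 as the threshold for limma's adjusted p, 5 of the 7 were called lower at 100 µM than in PBS and none higher, where 11.2% of all tested probe sets were lower and 12.8% higher. For 5 mM against 100 µM 6 were called higher and none lower, where 12.8% were higher and 14.6% lower. For 5 mM against PBS 3 were called higher, those of Gap43 and Sox11, and 1 lower, that of Gbx2, where 5.68% were higher and 6.03% lower. The probe sets were selected on these arrays, so nothing is read from these counts. The median log2 difference of the 7 was 0.68 for 5 mM minus PBS, -1.12 for 100 µM minus PBS and 1.99 for 5 mM minus 100 µM, and over all tested probe sets it was 0.01, 0.08 and -0.05. These 3 comparisons share arrays and are not independent of one another.

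**Figure D2:**
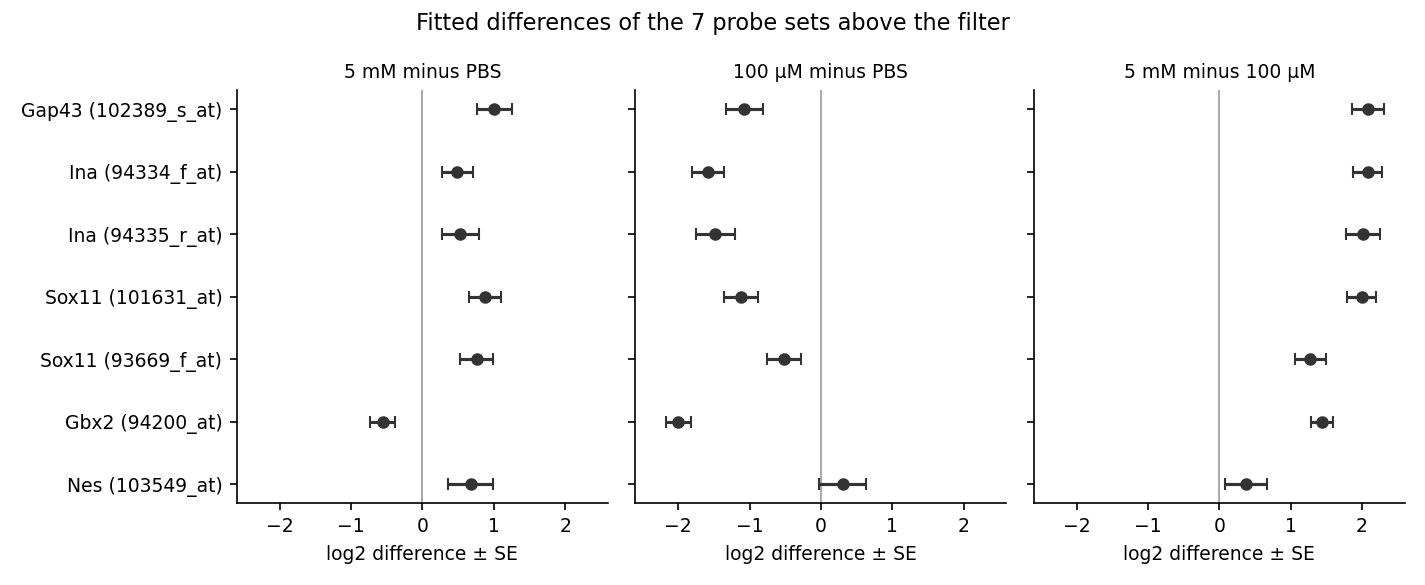
Fitted log2 difference (x axis, on the log2(signal + offset) scale) of the 7 probe sets above the filter (rows) for 5 mM minus PBS, 100 µM minus PBS and 5 mM minus 100 µM (panels); whiskers are the SE. In the right panel Gap43, Ina and the brighter Sox11 probe set lie between 1.99 and 2.08 and Nes lies at 0.37, and in the left panel Gbx2 alone lies below 0, at -0.56.

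The calls at 5 mM against PBS depended on the arrays used. That of Gap43 was lost without PBS replicate 2 or 3, with log2 differences of 0.93 and 0.98, and that of the brighter Sox11 probe set was lost without either of them, at 0.73 and 0.70. That of the dimmer Sox11 probe set was lost without any 1 of the PBS arrays, without high-dose replicate 1, 2, 4 or 5 and without low-dose replicate 3 or 4. That of Gbx2 was lost without any 1 of the PBS arrays, where it ran between -0.66 and -0.49, without high-dose replicate 1, 2, 3 or 5 and without low-dose replicate 2 or 4. Both were also lost with no filter, with a floor in place of the offset and after quantile normalization. That of the dimmer Sox11 probe set was lost too with arrays scaled to a common median and with only the groups compared. No log2 difference changed sign under a setting in which it was fitted, and Gap43, Nes and the dimmer Sox11 probe set were not fitted under the filter at the 50th percentile. Because the probe sets were selected on these arrays, that is no independent support for their direction. A change of the filter, or of the arrays of the group not compared, also could not have moved a difference.

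Genes with the most similar pattern over the 12 arrays were found for the brightest probe set of each gene, by the root mean square difference of the log2 values after each gene's own mean was taken away, among 6413 genes. A value of 0 would be an identical pattern, and the values of Gap43, Ina, Sox11, Gbx2 and Nes scattered about their own means by 0.937, 0.957, 0.912, 0.834 and 0.502. Nearest to Gap43 were Stmn3, a tubulin-binding stathmin gene of neurons, at 0.335, the calmodulin-like gene Calml4 at 0.336 and Sox11 at 0.353. Nearest to Ina, by its probe set with family-shared probes, were Sox11 at 0.307, P3h4, a gene of collagen modification, at 0.343 and the cell adhesion gene Nectin3 at 0.348. Nearest to Sox11 were the phosphatase gene Mdp1 and the seryl-tRNA synthetase gene Sars, both at 0.288, and Ina at 0.307. Sox11 was thus among the 3 nearest genes of both Gap43 and Ina. These distances share all 12 arrays, and they are descriptions of genes chosen for this pattern.

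Gbx2 stood in other company. Nearest to it were Tcea3, a transcription elongation factor gene, at 0.215, Gad1, which encodes a GABA-synthesizing enzyme, at 0.251 and Tmsb4x, which encodes the actin-binding thymosin beta 4, at 0.254. Tcea3 averaged 607 ± 77.1 units in PBS (SD, n = 3), 151 ± 18.5 at 100 µM (n = 4) and 374 ± 51.7 at 5 mM (n = 5), and like Gbx2 it was highest in PBS. Ina, the nearest of the other 4 neural genes, ranked 136 from Gbx2, at 0.518. Nearest to Nes were the sarcosine dehydrogenase gene Sardh at 0.311, the ATP synthase subunit gene Atp5md at 0.322 and the collagen gene Col6a1 at 0.327. For Nes the distances to the other 4 genes were 0.859 to 1.03, larger than its own scatter. With quantile-normalized values Mdp1 replaced Sox11 among the 3 nearest of Gap43, Calml4 replaced P3h4 for Ina and Abca2 replaced Atp5md for Nes.

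Close relatives of these genes, picked by family and not by a rule on their values, were read on the same arrays. Sox4, which with Sox11 belongs to the SoxC group, was higher at 5 mM than at 100 µM by both of its probe sets, with log2 differences of 0.67 ± 0.16 (SE; limma adjusted p = 0.005) for 160109_at and 1.15 ± 0.18 (limma adjusted p = 0.000239) for 101430_at. Neither passed at 100 µM against PBS, at -0.30 (limma adjusted p = 0.252) and -0.09 (limma adjusted p = 0.801). Probe set 160109_at averaged 214 ± 24.1 units in PBS (SD, n = 3), 172 ± 22.9 at 100 µM (n = 4) and 283 ± 62.6 at 5 mM (n = 5), the same order of means as Sox11. Probe set 101430_at averaged 84.9 ± 21.2 units in PBS, 78.7 ± 14.7 at 100 µM and 187 ± 34.7 at 5 mM. Sox2 had the opposite signs to Sox11. Its log2 difference was 0.61 (limma adjusted p = 0.00951) for 100 µM minus PBS and -0.84 (limma adjusted p = 0.000244) for 5 mM minus 100 µM. By 103301_i_at Sox3 was 0.80 higher at 5 mM than in PBS (limma adjusted p = 0.0383), but 103302_r_at did not pass, at 0.91 (limma adjusted p = 0.0515). Sox1 and Sox10 passed in no comparison, nor did En1 and En2, related to Gbx2. Among intermediate filament genes, the neurofilament gene Nefh averaged 104 ± 29.0 units in PBS, 78.3 ± 5.29 at 100 µM and 109.8 ± 24.1 at 5 mM and passed in no comparison (limma adjusted p from 0.112 to 0.848). The peripherin gene Prph, the vimentin gene Vim and the glial filament gene Gfap did not pass either, and the probe sets of the neurofilament genes Nefl and Nefm were below the filter.

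The growth cone genes related to Gap43 went different ways. Marcks, like Gap43 a membrane-bound kinase C substrate, averaged 214 ± 27.0 units at 100 µM (n = 4), against 109 ± 16.9 in PBS (SD, n = 3), a log2 difference of 0.92 ± 0.18 (SE; limma adjusted p = 0.00185) opposite in sign to that of Gap43. Its paralog Marcksl1 and the growth cone gene Basp1 passed in no comparison. Stmn3 had probe sets that disagreed. For 160170_at, the nearest to Gap43, the log2 difference of 100 µM minus PBS was -1.08 ± 0.30 (SE; limma adjusted p = 0.0156), a call lost without PBS replicate 3, while for 161934_f_at it was 0.54 ± 0.24 (limma adjusted p = 0.119). Stmn2, a stathmin gene of growing axons, was lower at both doses by 95669_g_at, with 191 ± 24.7 units at 5 mM and 194 ± 30.9 at 100 µM, against 329 ± 15.5 in PBS (log2 differences of -0.76 and -0.75; limma adjusted p = 0.00381 and 0.0032). Its other probe sets passed in no comparison.

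The wider set of neural genes, 224 genes in 6 lists without the 5 genes above, was read beside them. Of these 175 were on the array and 99 passed the filter. The lists were drawn up with earlier results of these arrays known. At 5 mM against PBS 8 were higher, 3 lower and 88 not called, the median log2 difference being 0.11, beside 5.36% higher and 6.84% lower of 6414 genes and a median of -0.01. At 100 µM against PBS 17 were higher, 6 lower and 76 not called, the median being 0.24, beside 11.9% higher, 12.7% lower and a median of 0.04 over all genes. At 5 mM against 100 µM 8 were higher, 12 lower and 79 not called, the median being -0.09, beside 13.8%, 15.2% and -0.04. That split turned to 13 higher and 7 lower with arrays scaled to a common median and to 14 and 9 after quantile normalization. In the direction that Gap43, Ina, Sox11 and Gbx2 took at 100 µM, 6 of the 99 passed. The order with all 100 µM arrays lowest was found for 3 of the 99 (3.03%), Crmp1, Stmn3 and Gad1, and for 483 of 6414 genes (7.53%).

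**Figure D3:**
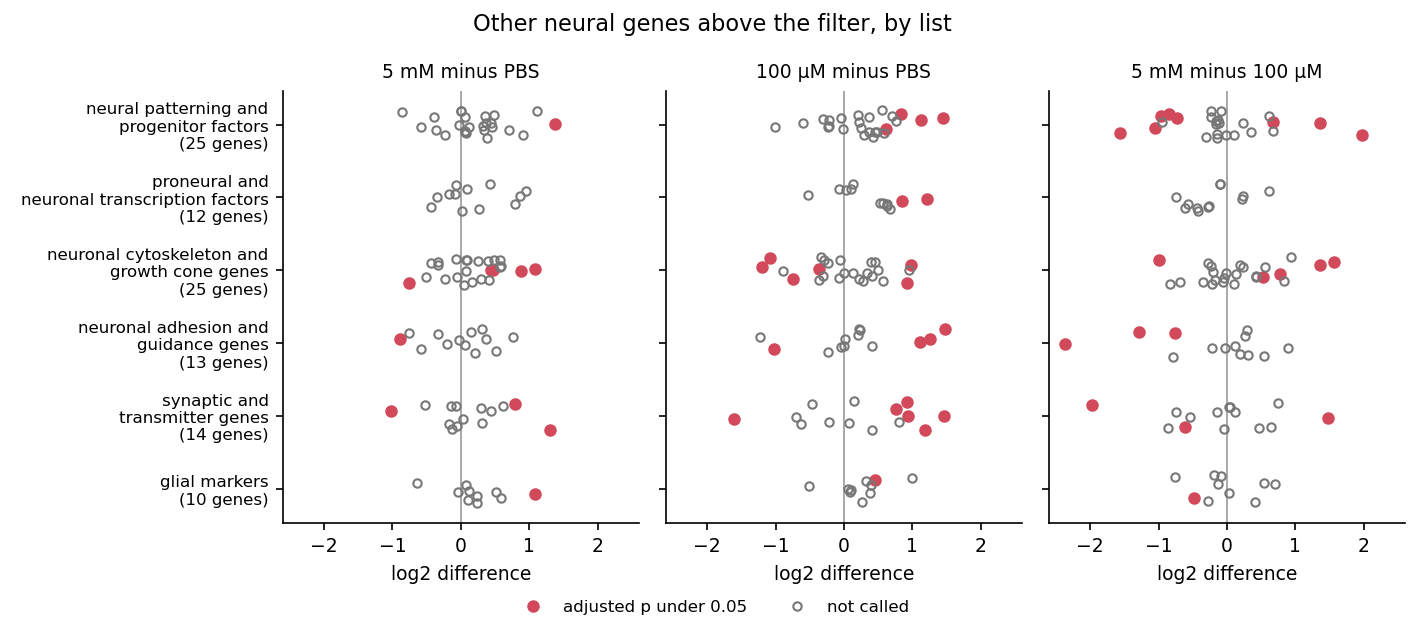
Log2 difference (x axis) of the 99 other neural genes above the filter, by list (rows), for 5 mM minus PBS, 100 µM minus PBS and 5 mM minus 100 µM (panels); filled points passed limma's adjusted p threshold of 0.05 and open points did not, and vertical scatter within a row has no meaning. In the middle panel 17 filled points lie right of 0 and 6 left of it, whereas most of the genes described above lay on the left.

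Among 25 patterning and progenitor factors, 1 was higher at 5 mM than in PBS, 4 were higher at 100 µM than in PBS, and between the doses 3 were higher and 5 lower at 5 mM. Dll1, which encodes a Notch ligand, averaged 101 ± 15.1 units at 5 mM (n = 5), against 22.5 ± 22.2 at 100 µM (SD, n = 4), a log2 difference of 1.97 ± 0.34 (SE; limma adjusted p = 0.000504). Against PBS it was 1.37 ± 0.37 higher at 5 mM (limma adjusted p = 0.0268), a call lost without PBS replicate 1 or 3 and without high-dose replicate 1, 4 or 5. Hes1, a repressor gene downstream of Notch, went the other way between the doses, at -1.05 for 5 mM minus 100 µM (limma adjusted p = 8.15e-05). It averaged 603 ± 94.5 units at 100 µM, against 271 ± 51.6 in PBS, a log2 difference of 1.13 ± 0.17 (SE, limma adjusted p = 0.000306). Pax5, a paired-box factor gene of the midbrain and hindbrain region, was higher at 100 µM than in PBS by 1.44 ± 0.38 (limma adjusted p = 0.0133; lost without PBS replicate 2). The other calls there were the morphogen gene Shh at 0.84 (limma adjusted p = 0.0467), lost under 14 settings and at 0.47 without PBS replicate 1, and the progenitor and stem cell factor gene Sox2 at 0.61 (limma adjusted p = 0.00951), lost after scaling to a common median and without PBS replicate 2. Between the doses, the growth factor gene Fgf15 was higher at 5 mM, at 1.35 (limma adjusted p = 0.00887), and the forkhead factor gene Foxd3 lower, at -1.56 (limma adjusted p = 0.000605). The mean of Fgf15 at 100 µM was 8.23 ± 2.39 units (SD, n = 4), under the offset, so the size of its difference depends on it.

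Of 12 proneural and neuronal transcription factors, 2 were higher at 100 µM than in PBS and no other comparison had a call in limma (3 at 5 mM against PBS and 1 between the doses at an unadjusted p under 0.05). These were the helix-loop-helix factor genes Nhlh1, at a log2 difference of 1.22 ± 0.34 (SE; limma adjusted p = 0.0166), and Neurod1, at 0.85 ± 0.24 (limma adjusted p = 0.016). The call of Nhlh1 was lost without PBS replicate 1 or 3, and that of Neurod1 without PBS replicate 3 and after quantile normalization. At 5 mM against PBS the value farthest from 0 was that of Nhlh1 at 0.96 (limma adjusted p = 0.0675), and between the doses it was that of the homeobox factor gene Tlx3 at -0.75 (limma adjusted p = 0.0613). Nhlh1 was called at 5 mM against PBS without PBS replicate 2, at 1.382, or without high-dose replicate 4, at 1.105. Between the doses Tlx3 was called without low-dose replicate 2, at -1.003. None of these 12 factors was called in the direction of Sox11 and Gbx2 at 100 µM in limma, and none was lower there at an unadjusted p under 0.05. Of all genes tested 12.7% were called lower in that comparison, so with 12 factors nothing is read from this count.

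Among 25 cytoskeleton and growth cone genes, 4 were higher and 1 lower at 5 mM than in PBS, 2 higher and 4 lower at 100 µM than in PBS, and 4 higher and 1 lower at 5 mM than at 100 µM. Crmp1, which encodes a collapsin response mediator of axon guidance, averaged 80.4 ± 21.2 units at 100 µM (n = 4), against 195 ± 36.5 in PBS (SD, n = 3), and 220 ± 43.1 at 5 mM (n = 5). Its log2 difference was -1.19 ± 0.21 (SE; limma adjusted p = 0.000954) for 100 µM minus PBS and 1.35 ± 0.18 (limma adjusted p = 5.44e-05) for 5 mM minus 100 µM. The neuronal RNA-binding protein gene Elavl2 was higher at 5 mM than in PBS by 0.88 ± 0.19 (limma adjusted p = 0.00813). The tubulin gene Tubb4a was higher than in PBS at 5 mM by 1.08 (limma adjusted p = 0.026) and at 100 µM by 0.98 (limma adjusted p = 0.0287), and both calls were lost without PBS replicate 1 or 2. The first was also lost without high-dose replicate 1, 2 or 4, and the second without low-dose replicate 1, 2 or 4 and after quantile normalization. The stathmin gene Stmn1 read 0.77 higher at 5 mM than at 100 µM (limma adjusted p = 0.000134) and 0.46 higher than in PBS (limma adjusted p = 0.0268), and the call against PBS was lost without PBS replicate 2 or 3 or high-dose replicate 1 and after scaling to a common median. The sign against PBS turned after quantile normalization, at -0.20.

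Of 13 adhesion and guidance genes, 1 was lower at 5 mM than in PBS, 3 were higher and 1 lower at 100 µM than in PBS, and 3 were lower at 5 mM than at 100 µM. Efnb2, which encodes an ephrin ligand, averaged 271 ± 55.0 units at 100 µM (n = 4), against 90.0 ± 17.3 in PBS (SD, n = 3), a log2 difference of 1.48 ± 0.21 (SE; limma adjusted p = 0.000197). At 5 mM Efnb2 was lower than in PBS, with a difference of -0.89 ± 0.20 (limma adjusted p = 0.00932), and lower than at 100 µM, with one of -2.37 ± 0.18 (limma adjusted p = 2.3e-07). The ephrin receptor gene Epha4 was 1.27 higher at 100 µM than in PBS (limma adjusted p = 0.00148) and the ligand gene Efnb1 1.12 higher (limma adjusted p = 0.0104; lost without PBS replicate 2), while the semaphorin gene Sema4d was lower, at -1.03 (limma adjusted p = 0.0239; lost without PBS replicate 2 or 3, without low-dose replicate 2 or 3 and with only the groups compared). Between the doses Epha4 and Efnb1 were lower at 5 mM, at -1.29 (limma adjusted p = 0.000253) and -0.75 (limma adjusted p = 0.0331; lost under 10 settings).

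Of 14 synaptic and transmitter genes, 2 were higher and 1 lower at 5 mM than in PBS, 5 higher and 1 lower at 100 µM than in PBS, and 1 higher and 2 lower at 5 mM than at 100 µM. The gene that was lower at 100 µM than in PBS was Gad1, the neighbour of Gbx2. It read 42.0, 31.8 and 35.3 units in PBS, 13.1, 0.863, 1.68 and 7.76 at 100 µM, and 30.3, 26.6, 32.6, 38.9 and 32.5 at 5 mM. All but 1 of its values at 100 µM lay under the offset. Its log2 differences were -1.61 ± 0.30 (SE; limma adjusted p = 0.0015) for 100 µM minus PBS and 1.47 ± 0.26 (limma adjusted p = 0.000655) for 5 mM minus 100 µM. The calcium-binding protein gene Calb2 was higher than in PBS at 5 mM by 1.31 (limma adjusted p = 0.00259) and at 100 µM by 1.46 (limma adjusted p = 0.000892), and another such gene, Pvalb, was 0.79 higher at 5 mM (limma adjusted p = 0.00623). The vesicle fusion gene Vamp2 was lower than in PBS at 5 mM, with a difference of -1.03 (limma adjusted p = 0.00784; lost without PBS replicate 2), and higher at 100 µM, with one of 0.94 (limma adjusted p = 0.00924). The vesicle gene Rab3a was 1.19 higher at 100 µM than in PBS (limma adjusted p = 0.0212). That call was lost without any 1 of PBS replicates 1 and 2 and low-dose replicates 1 and 2, and with only the groups compared. Between the doses Vamp2 was lower at 5 mM, at -1.97 (limma adjusted p = 4.6e-06), and so was the complexin gene Cplx2, at -0.61 (limma adjusted p = 0.0343; lost under 9 settings).

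Of 10 glial markers, 1 passed in each comparison. The apolipoprotein gene Apod was higher at 5 mM than in PBS by 1.09 ± 0.29 (SE; limma adjusted p = 0.0235), a call lost without PBS replicate 3 or high-dose replicate 2. The gap junction gene Gja1, which is not specific to glia, was 0.45 higher at 100 µM than in PBS (limma adjusted p = 0.0333). It was lower at 5 mM than at 100 µM, at -0.49 (limma adjusted p = 0.00892). Both calls of Gja1 were lost after scaling to a common median. The first was also lost without PBS replicate 2 or 3 or low-dose replicate 2 or 3, and with only the groups compared.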

How the data were processed

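RNA of the 12 samples was hybridised to 1 array each. Per the submitters' processing notes the deposited intensities are MAS5 signals on a linear scale, 1 per probe set and array, which the authors had scaled; the MAS5 version is not given in the sources used here. Their means after trimming 2% at each end agreed to within 0.0195%, so that scaling was kept. The number of arrays limits the precision.

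Signals were taken to log2 after adding 10.1 units, the 20th percentile, which understates differences of dim probe sets. The 66 control probe sets were left out, and the 8695 probe sets with a mean above the 30th percentile were tested. A linear model of the 3 group means was fitted, on all arrays together, in limma 3.58.1 (R 4.3.3; lmFit and eBayes with a trend), two-sided, with Benjamini-Hochberg adjustment over all 8695 and a threshold of 0.05. SE are moderated. Where a gene had several tested probe sets, the one with the highest mean stood for it (6414 genes). Simulated data with 200 probe sets changed gave back 64% of changes of log2 1 for 5 mM against PBS, 63% for 100 µM against PBS and 71% between the doses. False calls numbered 7, 9 and 7 in that order. Its noise was independent between probe sets, and 1018 to 2385 were called in the data, so these rates may differ there.

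Names came from the platform annotation (10833 probe sets with 1 symbol, 396 with several, 1193 with none), 10817 of them updated by Entrez number through RefSeq. The members and lists were chosen with earlier results of these data known. Named were all probe sets of the 5 genes, up to 4 called genes per neural list and comparison (the one with the largest difference where none was called), and the 3 nearest genes of each; relatives were added afterwards by family. Of the marker lists for other cells, the mesoderm and neural crest list had 9 tested genes and the fibroblast list 11. Alternatives covered scaling, offset, filter, arrays fitted, the replicate number and leaving out each array.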

Additional observations from a re-analysis of the deposited data

How the results depend on the processing

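After scaling arrays to a common median, the split of calls moved: 309 higher and 618 lower at 5 mM against PBS (494 and 524 with the deposited scaling), 574 and 1498 at 100 µM against PBS (1110 and 977), and 1405 and 874 at 5 mM against 100 µM (1113 and 1272). The median of all probe sets at 100 µM against PBS was -0.09 under that scaling and 0.08 without it. After quantile normalization the splits were 929 and 1156 at 100 µM against PBS and 1287 and 1130 at 5 mM against 100 µM. The other neural genes, 8 higher and 12 lower at 5 mM against 100 µM, became 13 and 7 with median scaling and 14 and 9 after quantile normalization. A filter at the 50th percentile, with fewer genes tested, gave 13 calls there, where 20 were found. Leaving out single arrays gave 490 (without PBS replicate 2) to 1012 calls at 5 mM against PBS, where 1018 were found with all arrays (599 without PBS replicate 3), and 7 (without high-dose replicate 1) to 13 other neural genes, where 11 were found. Same-numbered arrays did not deviate together (r from -0.178 to 0.148 over 10 pairs, against -0.162 to 0.177 over 37 pairs of different numbers). No pairing by number was seen, but so few arrays cannot exclude one. With the replicate block the calls at 5 mM against PBS were 597, with 6 other neural genes, at 100 µM against PBS 1852 (2087 without it) and at 5 mM against 100 µM 2055 (2385 without it). At 5 mM against PBS the calls of both Sox11 probe sets, Gbx2, Dll1, Tubb4a, Elavl2 and Efnb2 were lost under it, as were those of Shh, Sema4d and Tubb4a at 100 µM against PBS and of Efnb1 and Cplx2 between the doses. The cause was not tested. Of the differences of the 7 tested probe sets of Gap43, Ina, Sox11, Gbx2 and Nes under alternatives, 403 moved by less than the spread between arrays or not at all. A further 8 moved by more, and none changed sign. Changing the filter, fitting only the groups compared or leaving out an array of the third group cannot move a difference. The count of 403 therefore includes values that were fixed in advance. Those 8 were of Gap43, Ina and the dimmer Sox11 probe set, and came from changing the offset. Dim values are limited by the offset.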

Other observations

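Stem cell genes outside the neural lists had the same low point at 100 µM as Gap43, Ina and Sox11. Dppa3, a gene of naive pluripotency and the germ line, averaged 82.0 ± 4.85 units in PBS (SD, n = 3), 23.4 ± 9.44 at 100 µM (n = 4) and 121 ± 15.5 at 5 mM (n = 5). Its log2 difference was -1.51 ± 0.23 (SE; limma adjusted p = 0.000351) for 100 µM minus PBS and 2.01 ± 0.20 (limma adjusted p = 3.06e-06) for 5 mM minus 100 µM. Utf1, a chromatin factor gene of pluripotent cells that was chosen after its values were seen, averaged 3181 ± 608 units in PBS, 1726 ± 385 at 100 µM and 2599 ± 216 at 5 mM. Thy1, a surface antigen gene shared by neurons, fibroblasts and other cells, averaged 109.4 ± 12.6 units in PBS, 30.9 ± 19.2 at 100 µM and 110.8 ± 14.1 at 5 mM. Its log2 difference was -1.66 ± 0.29 (SE; limma adjusted p = 0.000953) for 100 µM minus PBS and 1.67 ± 0.26 (limma adjusted p = 0.000162) for 5 mM minus 100 µM. In all, 2 of 19 stem cell markers, 1 of 11 fibroblast markers, none of 22 primitive endoderm markers and none of 9 mesoderm and neural crest markers had every 100 µM array below all others, beside 7.53% of all genes tested. By limma's calls the 9 mesoderm and neural crest genes had 1 higher at 5 mM than in PBS and 2 lower at 5 mM than at 100 µM. The 11 fibroblast genes had 1 higher and 1 lower at 100 µM than in PBS. Between the doses they had 1 higher and 2 lower at 5 mM.

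Other stem cell genes had their high point there. The pluripotency factor genes Klf4 and Tbx3 averaged 3380 ± 241 and 545 ± 45.8 units at 100 µM (SD, n = 4), against 1201 ± 171 and 163 ± 19.9 in PBS (n = 3), with log2 differences of 1.49 ± 0.13 (SE; limma adjusted p = 3.64e-06) and 1.69 ± 0.14 (limma adjusted p = 2.78e-06). Lefty1, an inhibitor gene of Nodal signalling, stood apart at 5 mM only, with 1029 ± 100.2 units at 5 mM (n = 5), against 266 ± 46.2 in PBS and 258 ± 17.0 at 100 µM. The epithelial-to-mesenchymal factor gene Snai1, on the mesoderm and neural crest list, averaged 25.9 ± 17.5 units at 5 mM, against 126 ± 41.4 at 100 µM, a log2 difference of -2.04 ± 0.37 (limma adjusted p = 0.000674).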
